A study of Mus musculus with 4 samples.

Results

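The 8 genes described here, Gata1, Klf1, Hemgn, Epor, Alas2, Hba-a1, Slc4a1 and Rhag, are markers of the red cell lineage, and they were followed in liver and white adipose tissue (WAT) of mice with and without Pnpla7, a gene for a lysophospholipase of the patatin-like family. They were chosen by name, as a readout of blood formation remaining in the liver of a young mouse, with fat as the reference tissue. The 8 genes had 8 probes, 1 each, of 39429 probes on the array. The probes that could be given a current gene name covered 22327 genes. The measurement was a 1-colour expression array with Cy3 label, read as the brightness of each probe.

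The 4 groups were liver of Pnpla7+/+ (wild-type) mice, liver of Pnpla7-/- mice, WAT of wild-type mice and WAT of Pnpla7-/- mice, all on the C57BL/6N strain and 4 weeks old. Each group was 1 array of mixed RNA, with the same amount taken from each of 5 mice. The sources used here do not give how the Pnpla7 allele was made, which fat depot was sampled or the sex of the mice, and the extraction protocol in the labels speaks of livers for all samples. With 1 array per group no test across animals was possible, so every difference below compares pools.

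Red cells are made first in the yolk sac and then in the fetal liver, which hands this task to bone marrow and, in the mouse, spleen around birth. Maturation follows a fixed order: GATA1 and KLF1 switch on the erythroid genes, erythropoietin acting through its receptor keeps the precursors alive, ALAS2 starts heme synthesis, and the globins and the membrane proteins accumulate last. Reticulocytes, the youngest circulating red cells, have lost the nucleus but still hold globin and Alas2 mRNA. Those transcripts therefore reach every tissue with the blood. GATA1 and KLF1 act earlier, in nucleated precursors, and whether their mRNA also comes with the blood was not tested. In bulk tissue, fewer cells of a type and less RNA per cell cannot be told apart.

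The stretches of DNA before the transcription start were searched for motifs of the factors named above. Erythroid genes are known to be switched on by GATA1, so the choice of genes is not independent of a GATA motif. RefSeq promoters (GRCm38.p6) were at hand for 7 of the 8 genes (Slc4a1 is named only), and the 250 bases before the start were searched on both strands for GATA motifs (AGATAA in 1 form, AGATAG in another, besides TGATAA in 1 form, TGATAG in another) and for KLF motifs (CCACACCC in 1 form, CCACGCCC in another). A GATA motif stood in 6 of 7 promoters, against 26.5% (8718 of 32851) of all promoters of that length. It began 13 bases before the start in Hemgn, 31 in Rhag, 54 in Epor, 80 in Klf1, 86 in Alas2 and 183 in Hba-a1, and no such motif was found in the window of Gata1. A KLF motif was found in 0 of 7 windows, against 7.72% of all promoters. The promoters of a regulator, an enzyme and a globin are shown because these 3 are among the 4 genes lower in liver described further on. The remaining gene, Slc4a1, had no promoter to show. All are on the plus strand, written 5′ to 3′ with the GATA motif in capitals. They are Klf1 at chr8:84901732-84901981, Alas2 at chrX:150547167-150547416 and Hba-a1 at chr11:32283422-32283671.

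Klf1: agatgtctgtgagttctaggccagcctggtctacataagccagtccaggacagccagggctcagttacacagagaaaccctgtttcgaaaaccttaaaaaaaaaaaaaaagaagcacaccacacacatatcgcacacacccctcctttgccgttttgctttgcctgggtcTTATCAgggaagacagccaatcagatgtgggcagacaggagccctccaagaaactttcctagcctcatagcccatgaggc

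Alas2: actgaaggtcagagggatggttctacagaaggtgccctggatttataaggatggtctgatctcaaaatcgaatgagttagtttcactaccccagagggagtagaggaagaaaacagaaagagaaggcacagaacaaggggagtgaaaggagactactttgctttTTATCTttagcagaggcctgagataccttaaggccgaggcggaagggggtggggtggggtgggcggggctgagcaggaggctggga

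Hba-a1: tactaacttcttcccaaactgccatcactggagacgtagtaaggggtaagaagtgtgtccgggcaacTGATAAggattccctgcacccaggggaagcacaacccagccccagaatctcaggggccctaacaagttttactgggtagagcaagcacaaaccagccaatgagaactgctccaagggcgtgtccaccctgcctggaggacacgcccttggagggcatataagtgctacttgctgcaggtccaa

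Read on the other strand, TTATCA in Klf1 is TGATAA and TTATCT in Alas2 is AGATAA. A match is a description of letters, and binding was not measured.

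Of the probes, 2 need a look before their values are used. The Hba-a1 probe, at chr11:32183955-32184014 on the plus strand (mm9, the build of the array's annotation), reads as open coding sequence, and the array's entry for it lists 2 transcript accessions. Hba-a1 and Hba-a2, near-identical copies of the alpha-globin gene, may therefore share its signal.

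Hba-a1 probe: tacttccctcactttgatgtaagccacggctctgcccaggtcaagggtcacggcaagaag

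The Hemgn probe, at chr4:46407248-46407307 on the minus strand (mm9), holds an unbroken dinucleotide repeat of 36 of its 60 bases. Its bases 15 to 44 are shown with the start of the repeat in capitals.

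Hemgn probe: atagacaataGTGTGTGTGTGTGTGTGTGT

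Because labelled copies of any transcript with the same repeat could pair with it, this probe is set against other repeat probes further on, and summaries are given with and without it. The remaining 6 probes lie at chrX:7536392-7536451 on the minus strand (Gata1), chr8:87428881-87428940 on the plus strand (Klf1), chr9:21763422-21763481 on the minus strand (Epor), chrX:147004993-147005052 on the plus strand (Alas2), chr11:102210256-102210315 on the minus strand (Slc4a1) and chr17:40976929-40976988 on the plus strand (Rhag), all in mm9.

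Values are given as multiples of the array's 75th percentile, a bright but not extreme spot, and differences as log2 ratios between arrays. A probe counted as measured in a pair when it was well above background on both arrays by the scanner software's own flag. The error after each ratio is that software's error model, whose median over genes was 0.20. Between different probes of 1 gene the SD of the ratio was 0.20 in liver and 0.23 in WAT, and between repeated spots of 1 probe 0.04 and 0.05. None of these errors holds the spread between animals.

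Between 65.5% and 72.6% of spots were well above background, and 0 were saturated. Marker genes followed the tissue labels. Between the wild-type arrays, 15 of 15 hepatocyte genes exceeded 2-fold in favour of liver (median log2 difference 7.70) and 7 of 7 measured adipocyte genes in favour of WAT (median -5.89). The 1 Pnpla7 probe read 9.04 times the 75th percentile in wild-type liver and 7.98 in liver labelled Pnpla7-/-, a log2 ratio of -0.18, and 0.739 and 0.372 in WAT, a ratio of -0.99. The sources used here do not say whether that probe lies in the deleted part, so each direction by genotype rests on the labels. Over all genes, the log2 ratio of labelled knockout over wild type had a median of -0.03 in liver (5th to 95th percentile -0.51 to 0.55, 15568 genes) and 0.02 in WAT (-0.71 to 0.65, 16131 genes).

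In liver labelled Pnpla7-/-, 4 erythroid genes had lower signal than in wild-type liver: Klf1 at 48.7% of the wild-type level, Slc4a1 at 51.3%, Hba-a1 at 58.1% and Alas2 at 60.8%. Epor and Hemgn were nearly level, and Gata1 and Rhag were not well above background. Those 4 of 6 measured genes were at least 1.5-fold lower, as were 3.72% of all genes measured in liver (579 of 15568). At the 2-fold limit the count was 1 of 6, Klf1, beside 0.886% of all genes. The median of the 6 ratios was -0.75, and -0.78 without Hemgn. All 6 ratios were below 0, as were 55.8% of all genes, though that of Hemgn had the other sign in 3 of 7 processing settings. With normexp background correction the genes at least 1.5-fold lower were the larger share of 18.8% (offset 50) or 23.9% (offset 0) of all genes, with 4 of the 6 erythroid genes past the limit in each.

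Among the regulators, Gata1, the zinc-finger factor that directs the lineage, was not well above background on any of the 4 arrays. Its log2 signal was -7.68 in wild-type liver, -7.89 in labelled-knockout liver, -7.00 in wild-type WAT and -7.53 in labelled-knockout WAT. On these arrays the lowest signals that counted as well above background lay between -6.31 and -5.77, so Gata1 has only an upper bound and no ratio.

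Klf1, the factor that activates beta-globin and many later erythroid genes, read 0.207 times the 75th percentile in wild-type liver, 0.101 in labelled-knockout liver, 0.0176 in wild-type WAT and 0.0203 in labelled-knockout WAT. Both liver arrays were above both fat arrays, and the wild-type liver array was the highest. The liver ratio by genotype was -1.04 ± 0.21 (error model), a larger difference than its error and than the SD between probes of a gene. In WAT Klf1 was well above background on the wild-type array alone and close to the lower limit on both, so no fold by genotype is given there. Wild-type liver exceeded wild-type WAT by 3.56 ± 0.34 on the log2 scale, and by 2.21 with normexp (offset 50). In the labelled knockout, liver was at least 4.98-fold higher than WAT, a lower bound because the WAT probe was not well above background.

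Epor, the receptor through which erythropoietin acts, read 0.667 and 0.638 in wild-type and labelled-knockout liver and 1.71 and 1.97 in the corresponding WAT. Fat was thus the higher tissue in both genotypes, and the genotypes lay close together in each. The ratio by genotype was -0.06 ± 0.20 in liver and 0.21 ± 0.20 in WAT, each about the size of its error or smaller. Liver was below WAT by -1.36 ± 0.20 in wild type and by -1.63 ± 0.20 in the labelled knockout. Epor is also known outside the erythroid lineage, in endothelial cells and fat among others.

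Alas2, the erythroid form of the first enzyme of heme synthesis, read 2.07 in wild-type liver, 1.26 in labelled-knockout liver, 1.52 in wild-type WAT and 1.098 in labelled-knockout WAT. In each tissue the labelled-knockout array was the lower one, and wild-type liver was the highest of the 4. The ratio by genotype was -0.72 ± 0.20 in liver and -0.47 ± 0.20 in WAT. Between tissues Alas2 differed little, by 0.44 ± 0.20 in wild type and 0.20 ± 0.20 in the labelled knockout.

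Hba-a1, an adult alpha-globin gene, read 25.3 in wild-type liver, 14.7 in labelled-knockout liver, 63.4 in wild-type WAT and 52.8 in labelled-knockout WAT. Both fat arrays were above both liver arrays, the opposite order to Klf1. The ratio by genotype was -0.78 ± 0.20 in liver and -0.26 ± 0.20 in WAT. Liver was below WAT by -1.33 ± 0.20 in wild type (-2.02 with quantile normalization) and by -1.85 ± 0.20 in the labelled knockout.

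Slc4a1, the anion exchanger known as band 3 that carries chloride and bicarbonate across the red cell membrane, read 0.0951 in wild-type liver, 0.0488 in labelled-knockout liver, 0.156 in wild-type WAT and 0.0929 in labelled-knockout WAT. The labelled-knockout array was the lower one in each tissue, and WAT was above liver within each genotype, though wild-type liver and labelled-knockout WAT were nearly level. The ratio by genotype was -0.96 ± 0.23 in liver and -0.75 ± 0.21 in WAT, and liver was below WAT by -0.72 ± 0.21 in wild type and -0.93 ± 0.23 in the labelled knockout. Rhag, the Rh-associated glycoprotein of the same membrane, was not well above background on any array. Its log2 signals were -7.71 and -7.96 in the livers and -7.38 and -7.64 in the WAT pools, wild type first.

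**Figure D1:**
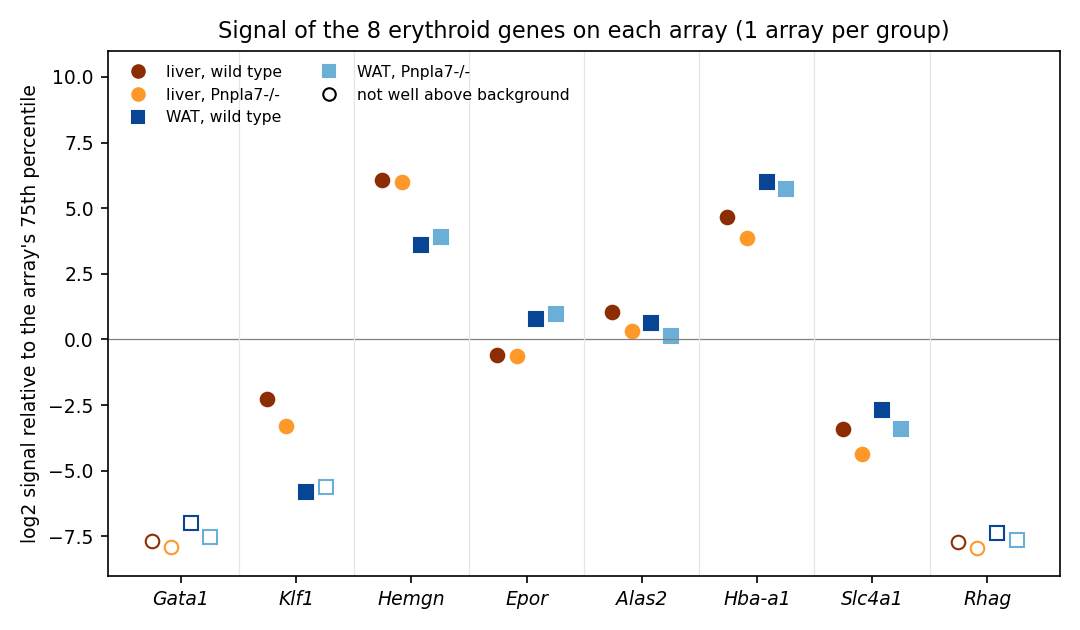
Log2 signal relative to the array's 75th percentile (y axis) of the 8 erythroid genes (x axis), 1 point per array, circles for liver and squares for WAT, hollow where the probe was not well above background. Within each genotype Klf1 and Hemgn lie higher in liver and Epor, Hba-a1 and Slc4a1 higher in WAT, while Gata1 and Rhag are hollow on all 4 arrays; points of different genes are not comparable in height.

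Hemgn, a nuclear protein of haematopoietic cells, read 66.9 in wild-type liver, 63.6 in labelled-knockout liver, 12.1 in wild-type WAT and 14.9 in labelled-knockout WAT. Liver was above WAT by 2.46 ± 0.20 in wild type (1.80 with quantile normalization) and 2.10 ± 0.20 in the labelled knockout, and the ratio by genotype was -0.07 ± 0.20 in liver and 0.30 ± 0.20 in WAT. There were 51 other probes, under 51 other gene names, with a run of at least 20 bases of the repeat shown above, all well above background on all 4 arrays. Their wild-type differences between liver and WAT ran from 1.75 to 2.76 with a median of 2.42, and 23 were above and 28 below that of Hemgn. In WAT their ratios by genotype ran from 0.03 to 0.36 with a median of 0.29, and in liver from -0.24 to 0.23 with a median of -0.07. The Hemgn probe lay inside the range of those probes in every comparison, so the Hemgn transcript and other transcripts that hold the repeat cannot be told apart. The 24 probes with the complementary repeat went the other way between tissues, from -2.33 to -1.17 with a median of -2.01.

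**Figure D2:**
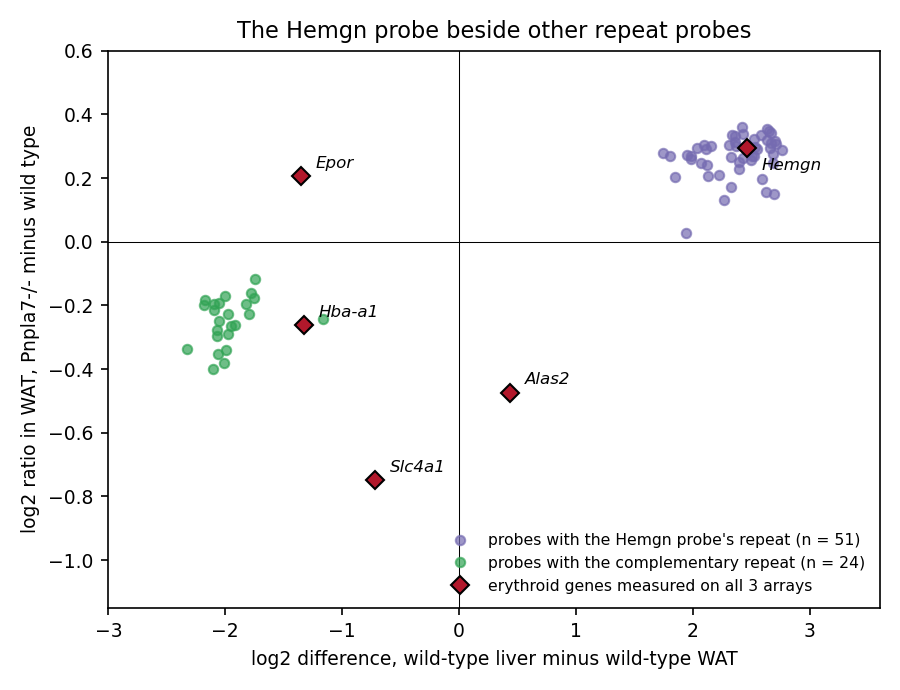
Log2 difference of wild-type liver over wild-type WAT (x axis) against the log2 ratio of labelled Pnpla7-/- over wild type in WAT (y axis) for 51 probes with the repeat of the Hemgn probe, 24 with the complementary repeat, and the 5 erythroid genes measured on these 3 arrays (diamonds). Hemgn, at 2.46 and 0.30, lies among the 51 repeat probes and apart from Epor, Alas2, Hba-a1 and Slc4a1; both axes use the wild-type WAT array.

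In WAT, Slc4a1 at 59.5% of the wild-type level was the 1 gene of 5 measured that was at least 1.5-fold lower, beside 7.57% of all genes (1221 of 16131). Alas2 stood at 72.0%, Hba-a1 at 83.3%, Epor at 115% and Hemgn at 123%. None of the 5 reached 2-fold in either direction, beside 2.01% of all genes lower and 2.16% higher. The median ratio was -0.26, and -0.37 without Hemgn. The 3 of 5 genes below 0 in WAT (47.2% of all genes), Slc4a1, Alas2 and Hba-a1, were also below 0 in liver, each with the larger size in liver. Whether the genotype difference itself differed between the tissues was not tested.

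Between the tissues of wild-type mice the genes split. Klf1 and Hemgn, 2 of 6 measured, were at least 2-fold higher in liver (15.6% of all genes), and Hba-a1 and Epor at least 2-fold lower (18.1%), with a median of -0.14. In the labelled knockout 1 of 5, Hemgn, was at least 2-fold higher (13.7% of all genes) and again Hba-a1 and Epor at least 2-fold lower (17.7%), with a median of -0.93. Without Hemgn, whose probe reads with other repeat probes, 1 of 5 was at least 2-fold higher in liver in wild type, and 0 of 4 in the labelled knockout. The medians without Hemgn were -0.72 and -1.28. These comparisons use the same arrays as those by genotype.

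The description of these genes as blood formation remaining in liver was set against a wider list of precursor and red cell genes. Apart from the repeat-bearing Hemgn probe, Klf1 was the 1 member at least 2-fold higher in liver than in fat, while Gata1 and Rhag were not detected. Of 16 red cell membrane genes, 9 were not well above background on either liver array, among them Epb42, Sptb, Ank1, Add2, Rhd, Kel and Tmod1. In the other wider lists this held for 1 of 11 erythroid factors, 0 of 10 heme synthesis genes and 2 of 7 globins with a probe. It also held for 2 of 16 late erythroid genes and 1 of 16 genes around erythropoietin and iron. Over all spots, 65.5% were well above background in wild-type liver and 68.2% in labelled-knockout liver. Those shares are of spots on each array, so they do not compare directly with counts of genes over both livers. The share of all genes not seen on either liver array is not given here. The adult globins, which blood carries into any tissue, were higher in fat. Of 55 wider-list genes measured in both wild-type tissues, 20 were at least 2-fold higher in liver and 11 at least 2-fold lower, beside 15.6% and 18.1% of all genes. In the labelled knockout 14 of 57 were higher and 15 lower, beside 13.7% and 17.7%. In wild type 6 of 12 late erythroid genes were higher in liver and 1 lower, 3 of 6 membrane genes higher and 1 lower, 4 of 10 heme synthesis genes higher and 0 lower, and 2 of 9 erythroid factors higher and 3 lower. Several genes of these lists, such as those for heme enzymes, hepcidin and the ammonia channel Rhbg, are active in hepatocytes.

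The other globins followed Hba-a1. Of 9 genes on that list 7 had a probe under the current name and 5 were measured in liver, where 3 were at least 1.5-fold lower and the median was -0.70. The ratios by genotype in liver were -0.81 for Hbb-bs, -0.77 for Hbb-bt, -0.70 for Hba-a2 and -0.54 for Hbb-b2, each ± 0.20. In WAT these adult globins had ratios of -0.42, -0.49, -0.27 and -0.42. All 4 were lower in liver than in WAT of wild-type mice, by between -1.65 and -1.16. The adult globin genes are near-identical in pairs and their probes may share signal. The embryonic globin Hbb-y, weakly detected in both livers, had a ratio of 0.04 ± 0.27, the embryonic Hbb-bh1 was seen in WAT alone, and Hba-x was seen nowhere. Summed over the list, globin signal was 89.2 and 54.8 times the 75th percentile in the livers and 212 and 170 in the WAT pools, wild type first.

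Heme synthesis past its first step did not share the size of the Alas2 difference. Of the 10 genes from Alad to the ferrochelatase gene Fech and the mitochondrial carriers, 0 were at least 1.5-fold lower in liver, 9 were below 0, and the median was -0.14. In WAT 2 of 10 were below 0 and the median was 0.24, with Alad at 0.61 and Cpox at 0.41. These enzymes also serve heme synthesis in hepatocytes and other cells.

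The transcription factor partners were near level. Of 9 measured in liver, 0 were at least 1.5-fold different and the median was 0.04 (-0.23 with normexp, offset 50), with Nfe2, a factor of globin regulation and platelets, at 0.57 ± 0.23 (-0.23 with normexp, offset 50) and Myb at -0.53 ± 0.42. In WAT Nfe2 was at 0.75 and Lmo2, a partner of Tal1, at -0.66, with a median of -0.04 over 10 genes. Of the red cell membrane genes 7 were measured in liver, with a median of -0.08. The lowest was Gypc, for glycophorin C, at -0.56 ± 0.20 in liver and -0.48 in WAT, and Tspan33 was at 0.32 in liver and -0.66 in WAT.

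Of the late erythroid genes, 12 were measured in liver; 2 of these were at least 1.5-fold lower and the median was -0.19. The lowest was Rhbg, an ammonia channel that hepatocytes also make, at -0.80. Hebp1 was at -0.50. The carbonic anhydrase genes Car1 and Car2 were at -0.18 and -0.31 in liver and at 0.74 and 0.96 in WAT.

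Around erythropoietin and iron, Epo itself was not well above background on any array. Of the 14 others measured in liver, 2 had at least 1.5-fold lower signal and 1 at least 1.5-fold higher (4.48% of all genes), with a median of -0.13. Those lower were Hamp2, a paralog of the hepcidin gene, at -1.89, and Stat5b at -0.61 over 2 probes. Hamp, for hepcidin, the hormone that limits iron release, was at -0.52, short of that limit. Tfrc, the transferrin receptor through which precursors and many dividing cells take up iron, was at 0.90 in liver and 1.09 in WAT. Pim1 and Cish, targets of STAT5 signalling downstream of several cytokine receptors, were at 2.09 and 1.93 in WAT and at -0.41 and 0.51 in liver. Over all 6 wider lists together, 57 genes measured in liver had a median of -0.12 with 7 at least 1.5-fold lower and 1 at least 1.5-fold higher, and 60 in WAT a median of 0.03 with 4 at least 1.5-fold lower and 8 at least 1.5-fold higher (6.19% of all genes).

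**Figure D3:**
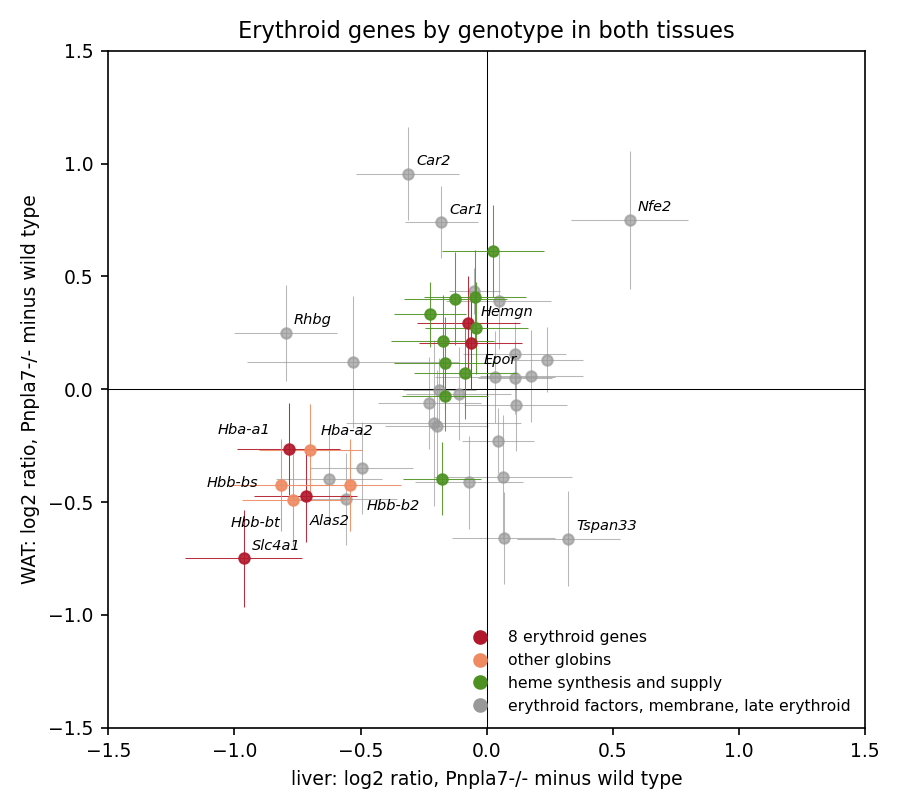
Log2 ratio of labelled Pnpla7-/- over wild type in liver (x axis) and in WAT (y axis) for erythroid genes measured in both tissues, 1 point per gene, bars for the scanner error model (Klf1 is absent because it was not measured in WAT). Slc4a1, Alas2, Hba-a1 and the adult globins lie lower left, with liver ratios from -0.96 to -0.54, while heme synthesis genes lie near 0 in liver.

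Markers of other cells moved with the genotype in liver. Of 11 neutrophil granule genes measured, 7 were at least 1.5-fold lower and 10 were below 0, with a median of -0.76. The lowest was Ltf (lactoferrin) at -1.65, followed by Cebpe at -0.92, Mpo (myeloperoxidase) at -0.88 and S100a9 at -0.87. Their summed signal was 6.82 in wild-type liver and 5.74 in labelled-knockout liver, and 2.43 and 2.63 in WAT. Within the liver sums Lcn2 alone rose, from 2.47 in wild type to 3.09 in the labelled knockout. Of the granule genes, Mmp8 and Mmp9 were not well above background in either liver. The proliferation genes were higher: 14 of the 17 measured exceeded 2-fold (1.75% of all genes), with a median of 1.40, and the summed signal was 13.4 in wild type and 25.1 in the labelled knockout; Aurkb was not well above background in either. Of 15 hepatocyte genes 14 were below 0 in liver, with a median of -0.28 and summed signals of 1894 and 1582. The megakaryocyte and platelet genes had a median of -0.02 in liver, with Ppbp at -1.56 and Pf4 at 0.85, and 5 of 14, Gp9, Gp1ba, Gp5, Gp6 and F2rl2, were not well above background in either liver. The median was -0.12 for progenitor genes, -0.32 for B cell genes, -0.02 for T cell genes and 0.17 for Kupffer cell genes. The fetal liver gene Afp was at 2.19, and the 2 probes of H19 disagreed, at 0.34 and 3.97; the list had a median of 0.44, and of -0.11 with normexp (offset 50). The part of these cells in the erythroid differences was not tested, nor was that of the blood left in each pool.

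In WAT, where the erythroid ratios were smaller, 9 of 15 measured Kupffer and macrophage genes were at least 1.5-fold lower (median -0.77), and 8 of 15 hepatocyte genes at least 2-fold lower (median -1.002), though their summed signal was 83.7 in wild type and 127 in the labelled knockout. Cyp2e1 alone went from 59.4 to 116, and the other 14 hepatocyte genes together from 24.3 to 10.4. The neutrophil granule genes had a median of 0.27, proliferation genes 0.08, megakaryocyte and platelet genes -0.34 and adipocyte genes 0.16. Their part in the Slc4a1 and Alas2 ratios of WAT was not tested.

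**Figure D4:**
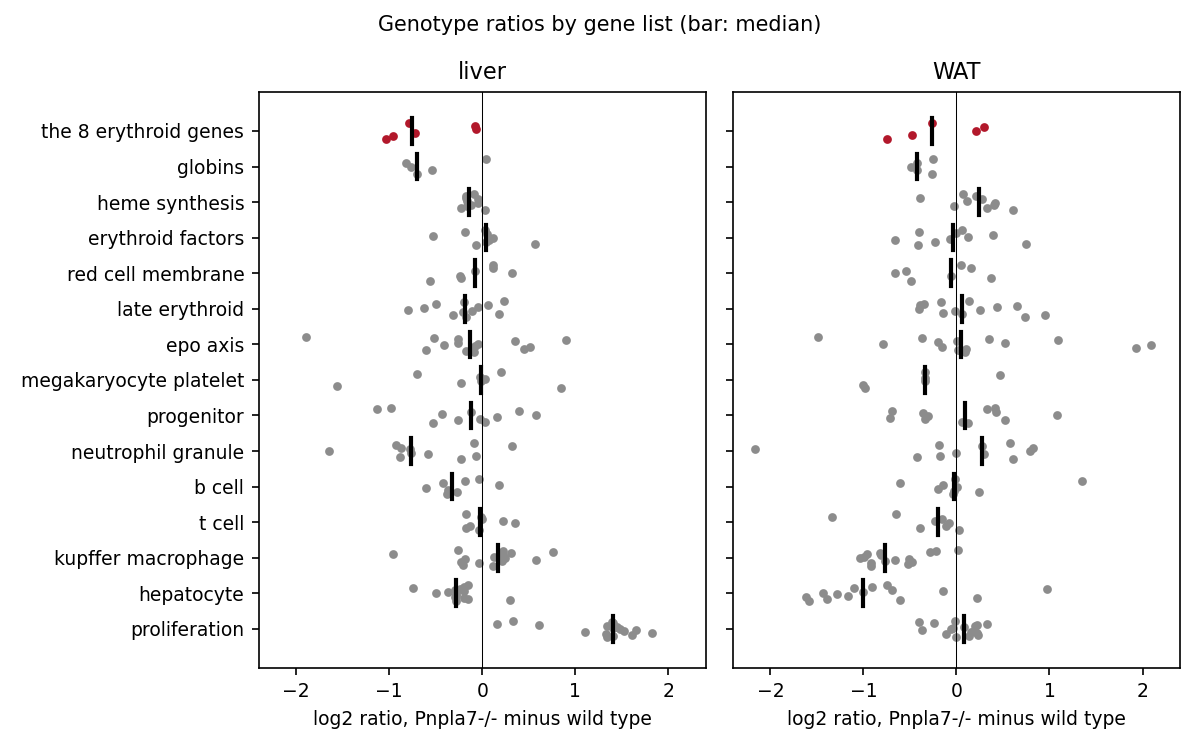
Log2 ratio of labelled Pnpla7-/- over wild type (x axis) for measured genes of each list (rows), 1 point per gene, in liver (left) and WAT (right), with a bar at the median. In liver the 8 erythroid genes, the globins and the neutrophil granule genes have medians of -0.75, -0.70 and -0.76, while proliferation genes have a median of 1.40.

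Genes with the most similar profile were sought over the 4 arrays among 15561 genes, by the root mean square difference of log2 levels centred over the arrays. Around Hba-a1 alone, 5 of the nearest 10 were in the erythroid lists, among them the adult globins Hbb-bt (0.08), Hba-a2 (0.11), Hbb-b2 (0.12) and Hbb-bs (0.12). Around Slc4a1, 0 of 10 were, the nearest being Fn3krp (0.06), and the eighth was Mpo (0.18). Around Klf1 the nearest were Ethe1 (0.09) and Bco2 (0.11). Around the mean of the 6 measured genes, 0 of 10 were, the nearest being Gm5166 (0.02), Olfr279 (0.03) and Cpq (0.03). With Hemgn left out of the mean, 0 of 10 were again, but the nearest became Spag4 (0.04), Gm3187 (0.06) and Olfr94 (0.06). Neither mean profile thus had erythroid genes among its nearest 10, and among the anchors named here only Hba-a1 did. With 4 arrays such a likeness is a description.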

How the data were processed

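RNA of 4 pools was measured on 4 arrays, 1 per group, all on 1 slide with 1 scan time; 200 ng was labelled, per the labels. The deposited intensity values came, per the file headers, from Agilent Feature Extraction 11.0.1.1, background-corrected and detrended within the array and not normalized between arrays. The deposited table of the whole series held ratio values, which matched the authors' processed signal divided by 1 constant per array, its 75th percentile; scale, centring (none) and direction were thus settled, and the column medians were 0.0737, 0.0751, 0.0876 and 0.0875.

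Here each processed signal was divided by the 75th percentile of its array, controls left out, and put on the log2 scale. Outlier spots (79 to 110 per array) were dropped, spots of a probe averaged, and a gene's ratio taken over probes with more than a 0.5 share of spots well above background on both arrays. A probe seen on 1 array of a pair gave a bound from the lowest signal well above background. The 75th percentile was 193 to 271 times the mean of negative controls. Probe names were updated through a RefSeq table (GRCm38.p6): 27234 by accession, 3576 by symbol and 565 by synonym. The other 8054 had a name in the file only and did not enter the gene ratios, the lists or the counts over all genes.

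No test was run, since each group was 1 array; genes at least 1.5-fold or 2-fold different were counted beside all genes. The 8 genes, 17 lists, limits and the motif search were chosen with earlier results of these data known. Named were all 8 genes, up to 4 genes per list with the largest ratios in liver and 2 in WAT, genes of erythroid lists not detected, and the 10 genes most alike; others were named after their values were seen. A few list genes are left out of the text. Alternatives were normexp background correction (limma 3.58.1, R 4.3.3) with offset 50 or 0, quantile normalization, another percentile, the authors' values, no filter and the brightest probe. Tables were computed with Python 3.11.15, numpy 2.4.6 and pandas 2.3.3. The step that forms gene ratios was tested on simulated pairs with planted changes. The filter on dim probes, the scaling, the bounds and the searches were not simulated.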

Additional observations from a re-analysis of the deposited data

Results flagged for a closer look

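The ratio by genotype had opposite signs in liver and WAT, past the error in both, in 5 genes of the wider erythroid lists. Only genes reported here, picked by the size of their ratios, were counted, not the whole lists. The share over all genes was not computed. Below 0 were 55.8% of all genes in liver and 47.2% in WAT. The difference between tissues was not tested, since each group was 1 array. As the WAT ratio minus the liver ratio on the log2 scale, it was 2.51 for Pim1 (-0.41 in liver, 2.09 in WAT), a kinase gene induced by cytokines. It was 1.27 for Car2 (-0.31 and 0.96) and 0.921 for Car1 (-0.18 and 0.74), the carbonic anhydrase genes. It was 1.05 for Rhbg (-0.80 and 0.25), the ammonia channel gene that hepatocytes make, and -0.98 for Tspan33 (0.32 and -0.66). Of the 8 erythroid genes, 5 had a ratio in both tissues, and 0 of these showed opposite signs past the error in both.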

How the results depend on the processing

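No paired analysis was possible because each group was 1 array, and for the same reason no array could be left out. Over 7 settings Klf1 in liver ranged from -1.19 to -0.98, Slc4a1 from -1.30 to -0.91, Alas2 from -0.72 to -0.65 and Hba-a1 from -0.78 to -0.63; Hemgn alone of the 6 genes changed sign, from -0.07 to 0.13. In WAT Slc4a1 ranged from -0.77 to -0.48, Alas2 from -0.50 to -0.45 and Hba-a1 from -0.49 to -0.26. Between the wild-type tissues Klf1 ranged from 2.21 to 3.91, Slc4a1 from -0.85 to -0.13, Hba-a1 from -2.02 to -1.33 and Hemgn from 1.80 to 2.46. Of the main summaries 91 values kept within the spread or within 1.5 times the count and 26 moved. The wild-type median between tissues, below 2-fold, changed sign with both normexp settings. A change of sign was to be called a reversal only in a median of at least 2-fold. All main medians were below that limit, so no reversal could be called, whatever the settings gave.

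Normexp moved the median of all genes in liver from -0.03 to -0.19 (offset 50) or -0.20 (offset 0), and between the wild-type tissues to 0.21 or 0.23. In liver, all genes at least 2-fold lower numbered 138, against 242 with offset 50, 1467 with offset 0 and 446 with no filter; all genes at least 1.5-fold lower numbered 579, against 2927, 3723 and 1238. In WAT, all genes at least 2-fold lower numbered 325, against 163, 213 and 703, and at least 1.5-fold lower 1221, against 731 with offset 50 and 2116 with no filter. Erythroid genes at least 2-fold lower in liver numbered 1, against 2 with either normexp setting or quantile normalization and 0 with the percentile over probes seen on both arrays; those at least 1.5-fold lower in WAT numbered 1, against 0 with offset 50. The median of the erythroid genes in liver was -0.48 with no filter, where all 8 enter, and that of the wider erythroid lists -0.33 with offset 0.

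For erythroid members liver against WAT, the wild-type median of -0.14 became 0.13 with offset 50, 0.11 with offset 0, -0.51 with no filter and -0.72 without Hemgn. For the knockout arrays -0.93 became -0.69 with offset 50, -0.67 with quantile normalization, -0.34 with no filter and -1.28 without Hemgn, a choice made after seeing the data, as were the separate anchors of the profile search. The causes were not tested, except that no filter and the exclusion of Hemgn change which genes enter. Signal near background limits Klf1 in WAT and Slc4a1.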
